A study of Mus musculus with 6 samples.

Results

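SNARE proteins and their regulators are the machinery that fuses transport vesicles with their target membranes, and 37 genes of this machinery were followed in type 1 conventional dendritic cells (cDC1s) deficient in Vps33b. The set is a list of gene symbols, drawn up with earlier results of these data known, and its rule uses no measured value. It holds 12 syntaxins, 7 VAMPs, 3 SNAPs, 7 other SNAREs, 3 genes of SNARE disassembly and 5 genes of the Sec1/Munc18 family. Of the 37, 36 were found among the 32285 genes of the deposited table and 35 had enough reads to be tested. Stx10 has no gene of that symbol in the annotation used and was not analysed here. Vamp7 was listed at 0 reads in all 6 libraries. The 77 genes that the annotation places on unplaced scaffolds, Vamp7 among them, were all listed at 0, so the 0 of Vamp7 was not read as a limit on its level.

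The KO group was 3 libraries from mice labelled Vps33BdeltaDC, deficient in Vps33b, and the WT group was 3 libraries from wild-type mice. Both groups were C57BL/6, had been sensitized, and had been given 50 µg of house dust mite extract (HDM) through the nose, 24 h before cDC1s were sorted from the mLN. The labels used here name neither the promoter that drove the deletion nor the number of mice behind a library, and give no age or sex. Tests therefore measure the spread between these libraries, which may be technical.

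A SNARE complex is a bundle of helices from a vesicle and a target membrane. An R-SNARE, usually a VAMP, pairs with Q-SNAREs, which are syntaxins, SNAPs and relatives such as Vti1b. Sec1/Munc18 proteins hold syntaxins and the growing complex in register, and the ATPase NSF takes the spent complexes apart with adaptors also called SNAPs, which are no kin of the SNAP family of SNAREs. VPS33B is itself a Sec1/Munc18 protein. In dendritic cells the endosomal members serve phagosome maturation, antigen processing and the release of cytokines.

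Library depth ranged between 11755944 and 17434247 counts in KO and between 14949229 and 18450678 counts in WT. Levels are in CPM, the count of a gene scaled to a common library size, with TMM factors that make libraries comparable. Vps33b was at 5.0, 7.01 and 8.29 CPM in the KO libraries, against 16.2, 19.1 and 13.8 CPM in the WT libraries, so all 3 KO values lay below all 3 WT values. This is a log2 fold change of -1.28 ± 0.27 (SE), and the adjusted p from edgeR was 0.834. Reads from exons that remain after a deletion would still be counted, and in bulk RNA fewer cells with the transcript and less transcript per cell cannot be told apart. All 10 cDC1 markers passed the filter on low counts, and summed to between 2367 and 2923 CPM in KO and between 2580 and 2820 CPM in WT. On the log2 scale 8 of the 10 lay below 0, with a median of -0.42. Of them 3 had an unadjusted edgeR p under 0.05, where 3.06% of all genes did so in that direction, and 0 passed after adjustment. The sum of 10 monocyte and macrophage markers was 179, 168 and 679.8 CPM in the KO libraries and 347, 192 and 202 CPM in the WT libraries. T cell markers (7 genes) summed to 45.2 to 57.6 CPM in KO and 31.4 to 53.6 CPM in WT, NK cell markers (5 genes) to at most 4.67 CPM in any library, and neutrophil markers (6 genes, with Camp at 0 throughout) to at most 5.29 CPM. B cell markers (7 genes) summed to 115 to 401 CPM in KO and 166 to 292 CPM in WT, and pDC markers (6 genes) to 122 to 171 CPM in KO and 111 to 152 CPM in WT. Of the 6 pDC markers 4 lay below 0 on the log2 scale, with a median of -1.05. An unadjusted edgeR p under 0.05 was found for 2, both lower in KO, against 3.06% of all genes, and 0 passed after adjustment. Monocyte and macrophage markers had 1 gene of 10 under that threshold, lower in KO, against the same 3.06%. Mature dendritic cell (8 tested), NK cell (5 tested) and stroma markers (5 tested) had 1 each, higher in KO, against 2.71% of all genes. The median log2 fold changes of those lists were 0.32, 0.15 and 1.42, and 0 of their genes passed after adjustment. Markers of cDC2s (6 genes) summed to 126, 140 and 227 CPM in KO, against 163, 100.3 and 113 CPM in WT. Stroma markers (6 genes) summed to at most 19.9 CPM.

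None of the 35 tested genes passed. By the edgeR quasi-likelihood test with Benjamini-Hochberg adjustment over all 12568 genes, 0 of the 35 had an adjusted p under 0.05, where 0% of all genes did, and the smallest adjusted p in the set was 0.834. At an unadjusted p under 0.05 there were also 0 of 35, against 5.77% of all genes tested, 2.71% higher and 3.06% lower in KO. Without the filter on low counts Ykt6 was the 1 gene of the 35 under that threshold, against 4.8% of all genes, as it was with the replicate number as a block, against 7.5%, and with the block and offsets for GC content and length, against 6.73%. Without WT replicate 2 it was 1 gene, Scfd1, against 6.46%. Without KO replicate 1 it was 5 genes, Ykt6, Snap23, Vamp3, Stx8 and Stx7, all higher in KO, against 12.3% of all genes. DESeq2 and limma-voom, which called 10 and 0 genes over all, likewise had 0 of the 35 at either threshold. KO and WT values did not overlap for 3 of the 35, Snap23, Snap29 and Stx3, all higher in KO, or 8.57%. Over all genes 10.6% did not overlap, 5.46% with KO above and 5.19% with KO below. The groups of samples are small, and 95% intervals say how large a difference these libraries leave possible. The interval of the log2 fold change lay within 1.5-fold in either direction for 23 of the 35, as it did for 4511 of all 12568 genes. It lay within 2-fold for all of the 35 except Vamp1 and Vamp5, and for 8205 of all 12568 genes.

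**Figure D1:**
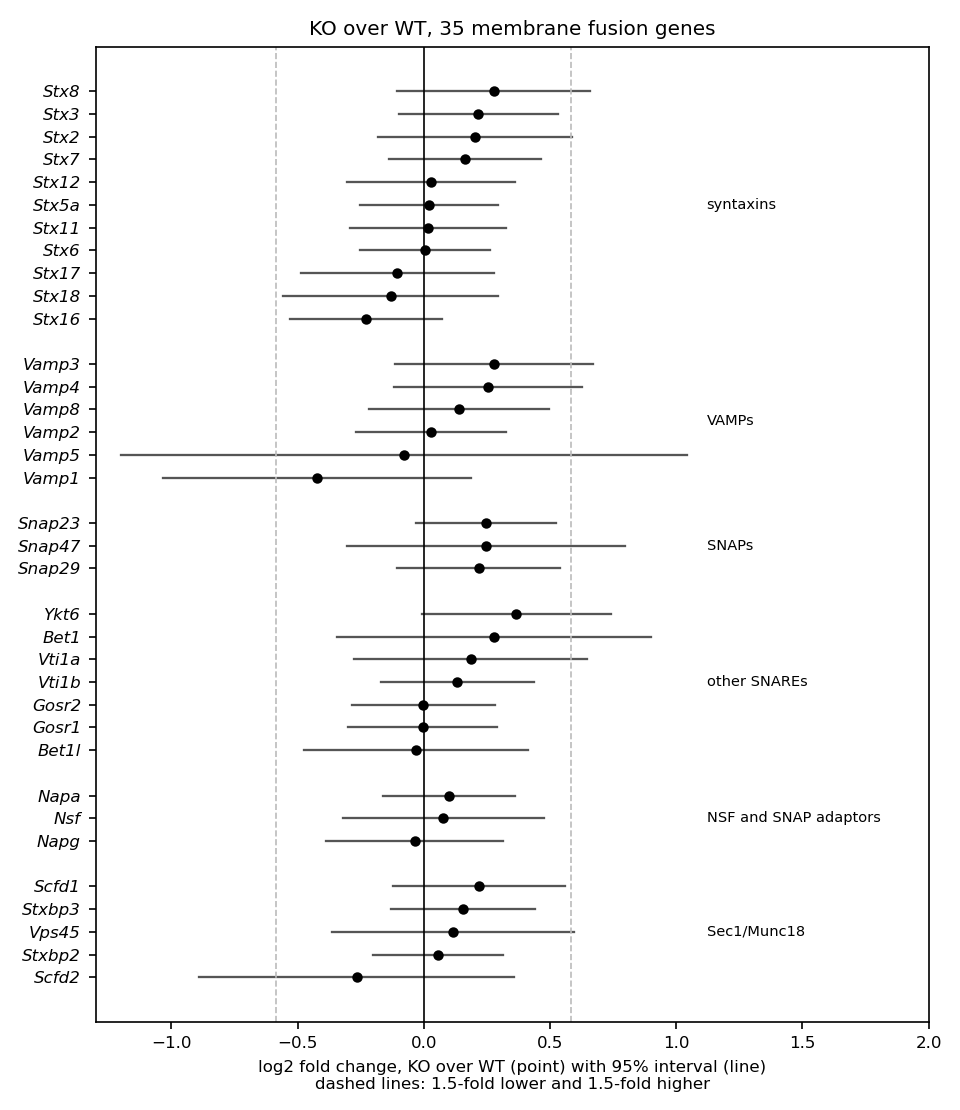
Log2 fold change, KO over WT, of each of the 35 tested genes (points) with its 95% interval (lines), by role from top to bottom. All 35 intervals cross 0, and only those of Vamp1 and Vamp5 reach beyond 2-fold.

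The fold changes leaned to the KO side by a small amount. Of the 35, 25 lay above 0 and 10 below, or 71.4% above, and 50.6% of all genes tested lay above 0. The median log2 fold change of the set was 0.10, beside 0.0043 over all genes, and single values ranged between -0.42 for Vamp1 and 0.37 for Ykt6. KO replicate 2 bore on this lean: when it was left out, 20 of the 35 lay above 0 with a median of 0.03, and leaving out KO replicate 1 gave a median of 0.16. KO replicate 2 held the highest value of the 6 libraries for 14 of the 35 genes (40.0%), where it was highest for 17.8% of all genes. The 8 markers of mature dendritic cells summed to 16920, 19100 and 22580 CPM in the KO libraries. In the WT libraries they summed to 17160, 15820 and 15830 CPM. KO replicate 3 was highest there and KO replicate 2 next. Of these 8 markers 7 lay above 0, with a median of 0.32 on the log2 scale. The 35 genes lay on average 0.11 above their own log2 means in KO replicate 2, and 0.0012 above in KO replicate 3. Transcript length also moved with fold change over all genes, whose median was 0.10 for the shortest and -0.07 for the longest when genes were split by exon length into 4 groups of like size. The part of markers and of length in the lean of the 35 was not tested. In the set, genes had a median exon length of 4289 bases, beside 4322 bases over all genes tested. Of the 35, 3 were in the group with the shortest exon length, 16 in the next and 8 in each of the others. Their median log2 fold change was 0.10 without and 0.08 with offsets for GC content and length.

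**Figure D2:**
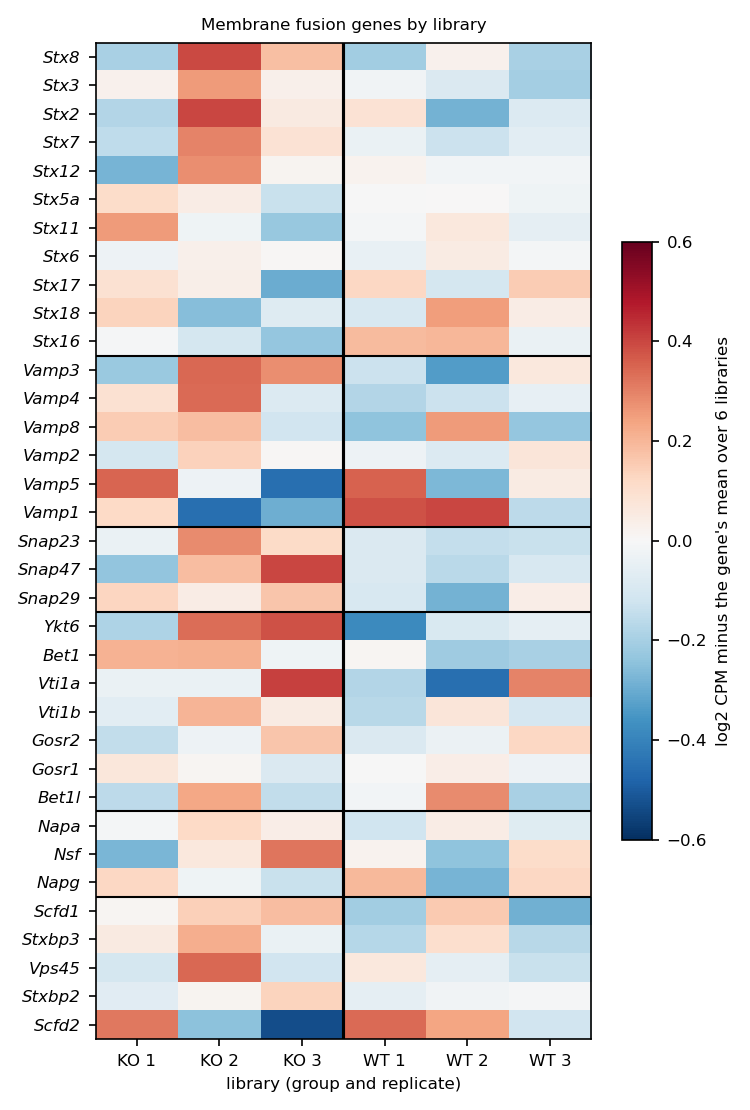
Log2 CPM of the 35 genes in each library, as the difference from the gene's mean over the 6 libraries (colour), with KO libraries on the left and roles separated by horizontal lines. KO 2 holds the highest value for 14 of the 35 genes, and no cell lies beyond 0.53.

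RefSeq (GRCm38.p6) gave a start for 32 of the 35 genes, and the 250 bases before it were searched on both strands. The observed over expected number of CpG was above 0.6 in 25 of 32 (78.1%), beside 67.6% of the 9693 tested genes with an entry and 34.5% of all 27025 genes. The NRF1 motif, searched as GCGCA, any base and GCGC, was found in 7 of 32 (21.9%), against 8.42% of tested genes and 3.86% of all. Those were Snap23, Snap29, Snap47, Ykt6, Stx2, Stx12 and Nsf. They include genes with log2 fold changes near 0, such as Stx12 (0.03) and Nsf (0.08), and the motif was not found in Stx3, Stx16 or Stx8. The E-box CACGTG, the core of the site of lysosomal regulators such as TFEB, was found in 5 of 32 (15.6%), against 8.34% of tested genes. The GC-box GGGCGG was in 56.2% of the set and 58.5% of tested genes, the CCAAT-box CCAAT in 40.6% and 36.8%, and TATAAA in 3.12% and 6.18%. The PU.1 motif GAGGAAGT was in 0 of 32 and in 2.76% of tested genes. These motifs were chosen with the values of the genes known, and a match describes letters and not binding. Below are the windows of the 3 genes that lead the set by p or by separation of the groups and hold the NRF1 motif (in capitals), and of Stx6, where the E-box is in capitals. All read 5′ to 3′ on the plus strand, at chr11:5955508-5955757 (Ykt6), chr2:120567421-120567670 (Snap23), chr16:17405750-17405999 (Snap29) and chr1:155158453-155158702 (Stx6).
Ykt6: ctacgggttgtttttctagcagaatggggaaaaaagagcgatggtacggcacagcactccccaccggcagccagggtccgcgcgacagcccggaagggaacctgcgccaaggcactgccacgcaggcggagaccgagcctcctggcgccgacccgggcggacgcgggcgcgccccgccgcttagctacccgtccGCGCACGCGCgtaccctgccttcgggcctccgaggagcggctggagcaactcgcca
Snap23: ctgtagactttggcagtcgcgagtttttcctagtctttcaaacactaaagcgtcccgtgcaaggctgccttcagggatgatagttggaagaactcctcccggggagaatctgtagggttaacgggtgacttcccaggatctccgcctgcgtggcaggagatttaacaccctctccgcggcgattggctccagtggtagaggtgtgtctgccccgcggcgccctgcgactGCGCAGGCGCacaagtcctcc
Snap29: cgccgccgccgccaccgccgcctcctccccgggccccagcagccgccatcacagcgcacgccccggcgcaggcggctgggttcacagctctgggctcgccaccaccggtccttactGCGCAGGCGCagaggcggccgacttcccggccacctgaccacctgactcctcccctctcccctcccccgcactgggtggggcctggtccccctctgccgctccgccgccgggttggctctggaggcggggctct
Stx6: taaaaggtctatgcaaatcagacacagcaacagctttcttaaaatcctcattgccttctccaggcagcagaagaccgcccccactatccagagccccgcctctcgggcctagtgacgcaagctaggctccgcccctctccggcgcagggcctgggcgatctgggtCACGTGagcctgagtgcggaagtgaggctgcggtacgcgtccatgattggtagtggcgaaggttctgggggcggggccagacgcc
The motif began 56 bases before the RefSeq start in Ykt6, 21 in Snap23, 134 in Snap29 and 85 in Stx6. GENCODE M21 places the start of Ykt6 and Snap29 further upstream, so that 65 and 14 bases of their windows lie inside the gene as annotated there. The motif of Ykt6 lies within those 65 bases, and so inside the gene by that annotation.

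Levels per length differed far more among the genes than between the groups. Per kilobase of exon, the mean over 6 libraries ran from 0.656 CPM for Vamp5 to 83.7 CPM for Gosr2, a 128-fold range. Of the 35 genes, 28 lay above the median of the 12568 tested genes on this scale and 8 above their 90th percentile. Those 8 were Gosr2, Stxbp3, Stxbp2, Vamp8, Vti1b, Stx11, Stx7 and Snap23. They include the Q-SNAREs Vti1b and Stx7 and the R-SNARE Vamp8 of the late endosomal complex, and the pair Stx11 and Stxbp2, which in human cytotoxic lymphocytes releases lytic granules. Stx8, also of the late endosomal complex, was lower, at 7.16 CPM per kilobase and rank 23 of the 35. Length here was that of all exons annotated for a gene, merged over transcripts, so these levels, ranks and shares depend on the annotation. It was 7137 bases for Stx8, against 1612 for Vti1b, 2311 for Vamp8 and 4473 for Stx7. In CPM, without division by length, the mean of Stx8 was 51.1, against 78.15 for Vti1b, 115.8 for Vamp8 and 193.7 for Stx7. The 5 highest genes held 41.3% of the summed level per kilobase of the set. By role, syntaxins held 28.4% of that sum, other SNAREs 25.2%, Sec1/Munc18 genes 18.3%, VAMPs 13.3%, SNAPs 7.94% and the disassembly genes 6.85%. Gosr2, a Golgi Q-SNARE, lay between 75.4 and 93.7 CPM per kilobase in KO and between 78.6 and 91.0 in WT. Stxbp3 lay between 68.7 and 82.2 in KO and between 62.8 and 75.9 in WT, so the ranges of these leading genes overlapped on the per-kilobase scale.

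**Figure D3:**
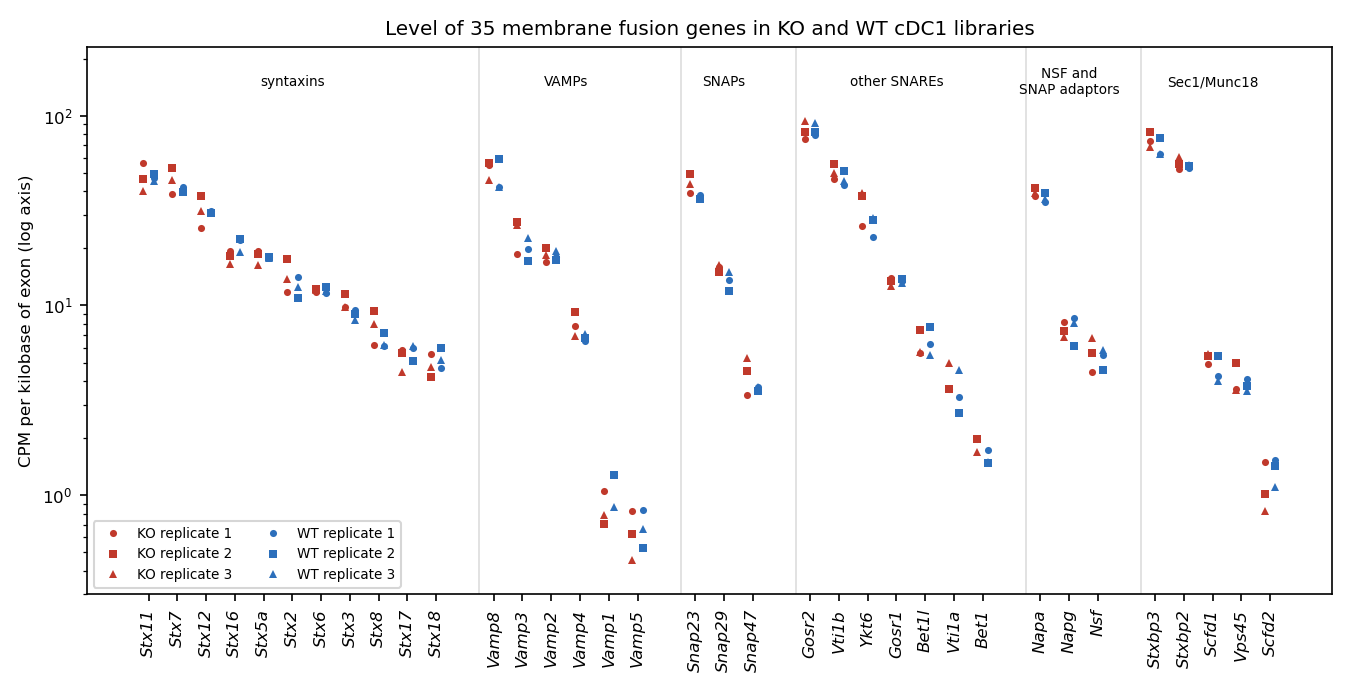
Level of the 35 genes in each library, in CPM per kilobase of exon on a log axis, with KO libraries in red left of WT libraries in blue and marker shapes for replicates 1, 2 and 3. Within a gene the red and blue points lie close together, while genes span 0.656 to 83.7 CPM per kilobase on average.

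Of the 3 SNAP genes, 2 had KO values above all WT values, as 5.46% of all genes did, and none passed the test. Snap23, the SNAP of plasma membrane and recycling endosomes outside neurons, was at 168, 211 and 188 CPM in the KO libraries, against 163, 157 and 158 CPM in the WT libraries. Every KO value was above every WT value, and the WT values lay close together. The means were 189 ± 21.3 CPM in KO and 159 ± 3.29 CPM in WT (SD, n = 3 each), with a log2 fold change of 0.25 ± 0.13 (SE) and an edgeR adjusted p of 0.834. Snap29, which joins syntaxin 17 on autophagosomes, was at 55.0, 51.9 and 56.4 CPM in KO and at 47.1, 41.3 and 51.7 CPM in WT. Its groups were apart by a margin of under 1 CPM, and the log2 fold change was 0.22 ± 0.15 (adjusted p = 0.853, edgeR). Snap47, a less studied member, was at 8.91, 11.97 and 13.9 CPM in KO and at 9.89, 9.40 and 9.85 CPM in WT, so that KO replicate 1 lay below all WT values. Exons of Snap47 overlap Jmjd4 on the other strand over 11.6% of their length, and those of Snap29 overlap Pi4ka over 1.74%. Counts of such genes are uncertain, since no source used here says whether strand was used in counting.

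Among the other SNAREs, Ykt6 had the smallest p of the whole set. Ykt6 is a lipid-anchored R-SNARE of the Golgi and of autophagosomes. Its level was 78.5, 112 and 116 CPM in the KO libraries and 68.6, 83.7 and 85.9 CPM in the WT libraries. KO replicates 2 and 3 were above all WT values, and KO replicate 1 lay within the WT range. The means were 102 ± 20.8 CPM in KO and 79.4 ± 9.44 CPM in WT (SD, n = 3 each), a 1.29-fold difference with a log2 fold change of 0.37 ± 0.17 and an edgeR adjusted p of 0.834 (unadjusted p = 0.0536). Without KO replicate 1 the log2 fold change was 0.53 ± 0.14, with an edgeR adjusted p of 0.215. Vti1b, the Qb-SNARE of late endosomes, was at 74.5, 89.8 and 80.5 CPM in KO and at 69.4, 82.0 and 72.6 CPM in WT, and the ranges overlapped. Its exons overlap Arg2 on the other strand over 17.7% of their length. Gosr2 was at 246, 267 and 306 CPM in KO and at 257, 266 and 297 CPM in WT, an almost complete overlap with a log2 fold change of -0.0026 ± 0.13. Bet1, a small Q-SNARE of transport between endoplasmic reticulum and Golgi, was at 7.39, 7.42 and 6.26 CPM in KO and at 6.43, 5.48 and 5.56 CPM in WT. KO replicate 3 lay within the WT range, and the log2 fold change was 0.28 ± 0.28. Gosr1 (-0.0044 ± 0.13) and Bet1l (-0.03 ± 0.20), both of the Golgi, lay near 0 on the log2 scale and the trans-Golgi Q-SNARE Vti1a was at 0.19 ± 0.21. Bet1l overlaps Ric8a on the other strand over 9.87% of its exon length, and Gosr2 overlaps C130046K22Rik over 4.56%.

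**Figure D4:**
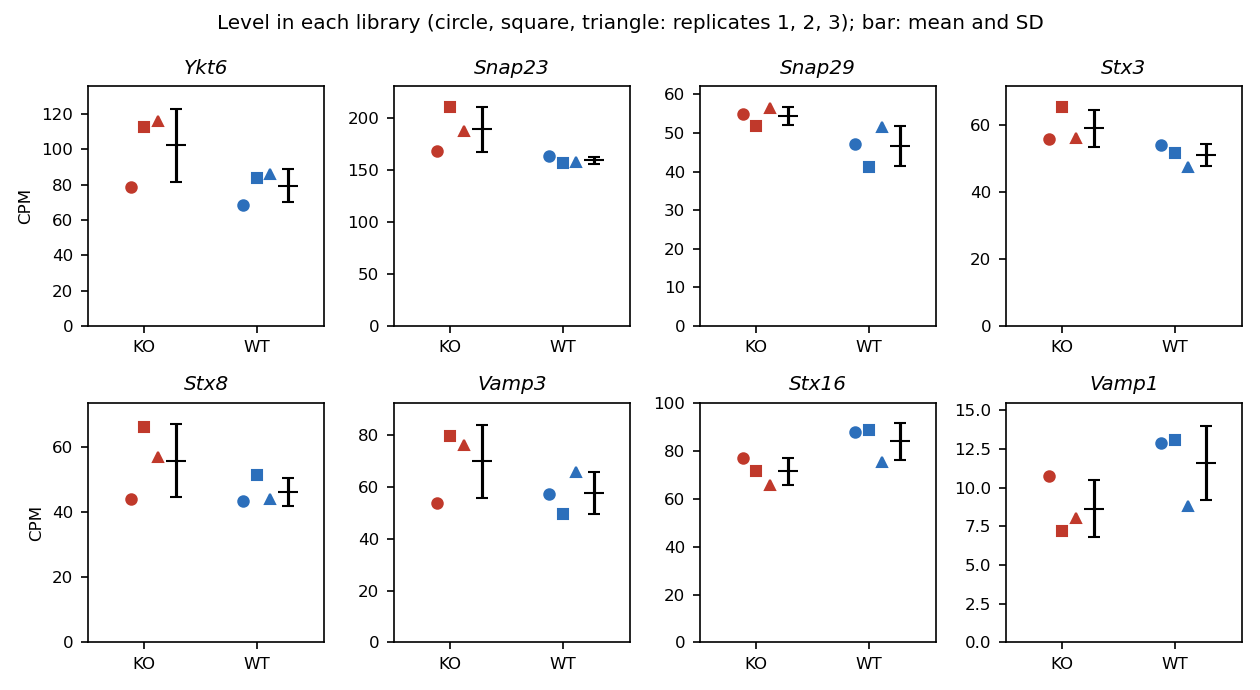
CPM of 8 genes in each KO library (red, left) and WT library (blue, right), with the group mean and SD as a black bar and marker shapes for replicates 1, 2 and 3. Snap23, Snap29 and Stx3 have all 3 KO points above all 3 WT points, while Ykt6, Stx8 and Vamp3 have KO replicate 1 within the WT range.

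The syntaxins had both signs, with 8 of 11 tested above 0. Their median was 0.02 on the log2 scale. Stx7, the Qa-SNARE of late endosomes, was at 173, 236 and 205 CPM in KO and at 188, 176 and 184 CPM in WT. KO replicate 1 was the lowest of all 6 libraries and KO replicate 2 the highest, and the log2 fold change was 0.16 ± 0.14 (adjusted p = 0.886, edgeR). Its Qc partner Stx8 was at 44.1, 66.3 and 57.2 CPM in KO and at 43.6, 51.3 and 44.0 CPM in WT. Again KO replicate 1 lay within the WT range and the other KO values above it, with a log2 fold change of 0.28 ± 0.17. Stx11 was at 237, 195 and 169 CPM in KO and at 197, 207 and 191 CPM in WT. Here the KO libraries stood on both sides of WT, KO replicate 1 highest and KO replicate 3 lowest, and the log2 fold change was 0.02 ± 0.14. Stx16, the Qa-SNARE of the trans-Golgi network, had the smallest p of the syntaxins and the opposite sign, at 77.0, 71.9 and 65.8 CPM in KO and at 88.1, 88.7 and 75.3 CPM in WT. Only WT replicate 3 lay in the KO range, and the log2 fold change was -0.23 ± 0.14 (adjusted p = 0.853, edgeR). Stx3, a plasma membrane syntaxin, was at 55.8, 65.5 and 56.0 CPM in KO and at 54.0, 51.6 and 47.6 CPM in WT, without overlap, with a log2 fold change of 0.22 ± 0.14. Of the rest, Stx2 of the plasma membrane was at 0.20 ± 0.17 on the log2 scale. Stx12 of recycling endosomes (0.03 ± 0.15), Stx5a of the Golgi (0.02 ± 0.13) and Stx6 of endosomes and the trans-Golgi network (0.0054 ± 0.12) lay near 0. Stx17 of autophagosomes (-0.10 ± 0.17) and Stx18 of the endoplasmic reticulum (-0.13 ± 0.19) lay below 0 by less than their SE. Stx18 overlaps Nsg1 on the other strand over 12.5% of its exon length.

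Of the R-SNAREs named VAMP, 4 of 6 tested lay above 0 in KO, and the others, Vamp1 and Vamp5, had the lowest levels per kilobase of the set. Vamp8, the R-SNARE of late endosomes and of regulated secretion in blood cells, was at 127, 130.3 and 106 CPM in KO and at 96.9, 137 and 97.6 CPM in WT. WT replicate 2 held the highest value, the groups overlapped, and the log2 fold change was 0.14 ± 0.16. Vamp3, the R-SNARE of recycling endosomes, was at 53.9, 79.8 and 76.3 CPM in KO and at 57.4, 49.7 and 65.7 CPM in WT. Its KO replicates 2 and 3 were above all WT values and KO replicate 1 was not, with a log2 fold change of 0.28 ± 0.18 (adjusted p = 0.853, edgeR). Vamp1, best known from synaptic vesicles, was at 10.7, 7.18 and 8.03 CPM in KO and at 12.9, 13.1 and 8.84 CPM in WT. It had the lowest log2 fold change of the set, -0.42 ± 0.28, with KO replicate 1 inside the WT range. Vamp4 of the trans-Golgi network (0.25 ± 0.17), Vamp2 (0.03 ± 0.14) and Vamp5 (-0.08 ± 0.51), known from muscle, complete the tested VAMPs on the log2 scale.

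Genes that take SNARE complexes apart lay close to 0. Napa, which encodes alpha-SNAP, was at 143, 157 and 148 CPM in KO and at 133, 149 and 137 CPM in WT. Its groups overlapped and the log2 fold change was 0.10 ± 0.12. Nsf, the ATPase itself, was at 37.2, 47.0 and 56.2 CPM in KO and at 45.6, 38.1 and 48.6 CPM in WT, with the WT values inside the KO range. Napg, which encodes gamma-SNAP, was at 69.9, 62.8 and 58.3 CPM in KO and at 73.2, 52.7 and 69.7 CPM in WT, and here the KO values lay inside the WT range. The log2 fold changes were 0.08 ± 0.18 for Nsf and -0.04 ± 0.16 for Napg.

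None of the 5 Sec1/Munc18 genes, the family of the deleted gene, passed the test. Stxbp3, or Munc18-3, which binds syntaxin 4, was at 392.4, 439 and 367 CPM in KO and at 336, 405 and 336 CPM in WT. WT replicate 2 lay among the KO values, and the log2 fold change was 0.16 ± 0.13 with a 95% interval of -0.13 to 0.44. Stxbp2, or Munc18-2, the partner of syntaxin 11, was at 219, 232 and 252 CPM in KO and at 221, 226 and 228 CPM in WT, with an interval of -0.20 to 0.31 around 0.06. Scfd1, the Sly1 protein that acts with syntaxin 5 on the way to the Golgi, was at 64.7, 71.0 and 73.1 CPM in KO and at 55.6, 71.6 and 52.6 CPM in WT. Here WT replicate 2 again stood with the KO libraries, and the log2 fold change was 0.22 ± 0.16. Without WT replicate 2 it was 0.36 ± 0.15, with an edgeR adjusted p of 0.745. Vps45, the partner of syntaxin 16 at early endosomes, was at 14.5, 19.8 and 14.4 CPM in KO and at 16.3, 15.01 and 14.2 CPM in WT. Scfd2, a little studied member, was at 12.3, 8.29 and 6.79 CPM in KO and at 12.5, 11.6 and 9.11 CPM in WT. Both ranges overlapped, with log2 fold changes of 0.12 ± 0.22 for Vps45 and -0.27 ± 0.28 for Scfd2. Vps33a, the paralog of Vps33b in the lysosomal HOPS tether and no member of the set, was at 38.2, 25.6 and 31.0 CPM in KO and at 31.9, 23.4 and 32.8 CPM in WT. Its interval ran from -0.36 to 0.54 on the log2 scale.

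**Figure D5:**
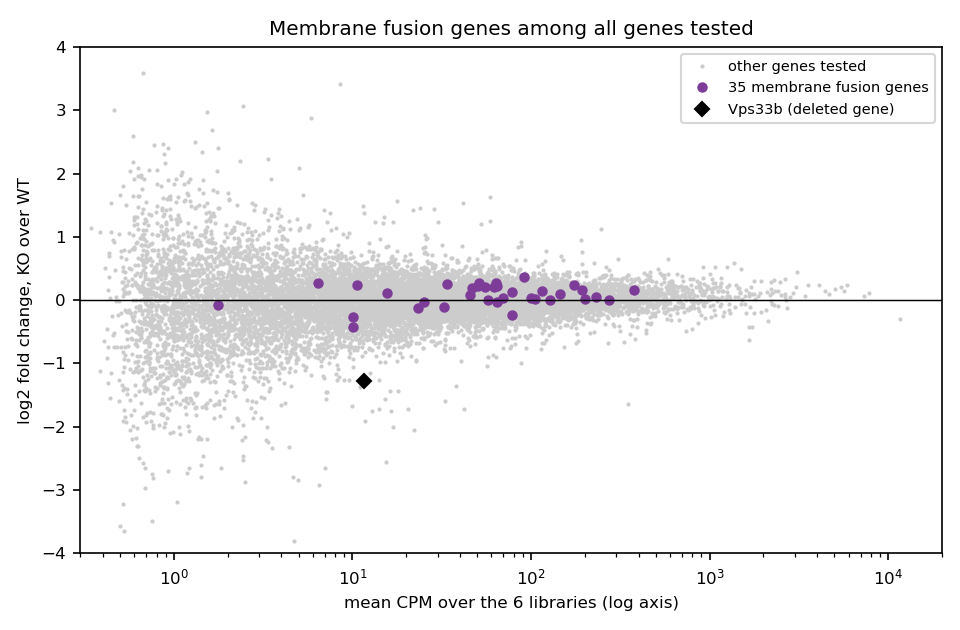
Log2 fold change, KO over WT, against mean CPM over the 6 libraries (log axis) for the 35 genes (purple), Vps33b (black diamond) and the other genes tested (grey), with 6 genes outside the plotted range. The 35 genes lie between -0.42 and 0.37, within the grey cloud, and Vps33b lies at -1.28.

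Grouped by the membrane at which they act, 4 of 4 tested late endosomal genes (Stx7, Stx8, Vti1b and Vamp8) lay above 0, and their median was 0.15 on the log2 scale. Their summed level was 419, 523 and 448 CPM in the KO libraries and 397, 447 and 399 CPM in the WT libraries, so KO replicate 2 stood highest and KO replicate 1 lay within the WT range. Plasma membrane genes lay above 0 in 8 of 9 cases with a median of 0.16. Their summed level was 1247, 1380 and 1243 CPM in KO and 1163, 1214 and 1159 CPM in WT. On average they lay at 0.0086, 0.18 and -0.0104 around their own log2 means in KO, and at -0.0072, -0.12 and -0.051 in WT. By that measure KO replicate 2 stood highest and KO replicate 3 lay within the WT range. Genes of the endoplasmic reticulum and Golgi lay above 0 in 4 of 10 cases with a median of -0.0035. For early endosomes and the trans-Golgi network it was 5 of 6, with a median of 0.07. Each gene was put in a single group at most, with Vamp3 and Vamp5 under plasma membrane and Stx17 under endoplasmic reticulum and Golgi. Vamp1, Snap29, Snap47, Napa, Napg and Nsf were put in none. Over all genes tested 50.6% lay above 0, and none of these genes passed.

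Another 28 genes of membrane fusion were read beside the set, of which 19 were tested, 10 above and 9 below 0. Their median was 0.0058 on the log2 scale. At an unadjusted p under 0.05 there were 2, against 5.77% of all genes, and none passed after adjustment. They were Vps33b itself and Stx4a, a plasma membrane syntaxin, at 149, 144 and 158 CPM in KO and 123, 119 and 117 CPM in WT, without overlap and with an edgeR adjusted p of 0.834. The count of Stx4a is among those that are uncertain without strand. Sec22b, the R-SNARE of the endoplasmic reticulum that is linked to phagosomes in dendritic cells, was at 50.3, 60.6 and 62.4 CPM in KO and at 51.1, 41.8 and 56.4 CPM in WT, and the groups overlapped. The neuronal SNARE Snap25, named after its values were seen, was at 0 in all 6 libraries.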

How the data were processed

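RNA of sorted cDC1s was extracted with Trizol and sequenced in paired ends on an Illumina instrument, per the labels' protocols. In the deposited file each gene, by Ensembl ID, has the authors' whole-number count in each library, without normalization. HISAT2 2.0.5, HTSeq and mm10 are named in the submitters' processing notes, and no source used here gives the release of the annotation, the use of strand or the handling of reads that match several places. Columns were matched to samples by the library label in each description.

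Genes were named from GENCODE M21 (mm10). Genes kept by filterByExpr (12568) were tested, KO over WT, by the quasi-likelihood method of edgeR 4.0.16 in R 4.3.3 (TMM factors, glmQLFit with robust estimation and legacy off, glmQLFTest) without covariates, and p-values were adjusted by Benjamini-Hochberg over all of them. Log2 CPM for the heat map used a prior count of 2.

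The alternatives tried were scaling by RLE or by the upper quartile, DESeq2 1.42.0, voom in limma 3.58.1, tests without a filter on low counts or with a minimum of 1 CPM in 3 libraries, no robust estimation, GC and length offsets (lowess span 0.3), a replicate block and each library left out. The earlier quasi-likelihood method of edgeR was added after the data were seen.

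The members and lists were chosen with earlier results of these data known. Values in each library are given for the 2 genes per role with the smallest p, the 2 with the highest level per kilobase, the late endosomal genes, all Sec1/Munc18 genes, Vps33b, Vps33a, Sec22b and Stx4a. Stx3, Snap47 and Snap25 were named with values after these were seen.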

Additional observations from a re-analysis of the deposited data

How the results depend on the processing

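None of the 35 genes passed the adjusted threshold under any alternative run, and their smallest adjusted p was 0.215, without KO replicate 1. At an unadjusted p under 0.05 there was 1 of 35 (Ykt6) without a filter, against 4.8% of all genes, 1 (Ykt6) with a replicate block, against 7.5%, and 1 (Ykt6) with the block and GC and length offsets, against 6.73%. With single libraries left out the count ranged between 0 and 5 of 35. The 5 were Ykt6, Snap23, Vamp3, Stx8 and Stx7 without KO replicate 1, or 14.3%, where 12.3% of all genes were under 0.05. Without WT replicate 2 it was 1 (Scfd1). The median log2 fold change ranged between 0.032 and 0.16 with a library left out, and the direction count between 20 and 26 of 35 above 0. Over all genes, calls numbered 3 without a filter and 10 with DESeq2, and between 0 and 7 with a library left out, while unadjusted counts ranged between 376 and 1621. The cause was not tested.

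Of 39 genes followed, 14 changed sign under some alternative, none with a log2 fold change beyond 0.12 in size. Stx6 was at -0.0027 with RLE, -0.0028 with upper-quartile scaling, -0.0036 with the 1 CPM filter and -0.0031 with DESeq2. Stx12 was at -0.0247 and Napg at 0.0271 with GC and length offsets, and at -0.0368 and 0.0349 with the block added. With a library left out, ranges that crossed 0 were -0.0311 to 0.0803 for Stx5a, -0.0218 to 0.0253 for Stx6, -0.12 to 0.11 for Stx11, -0.14 to 0.16 for Stx12, -0.0525 to 0.0889 for Vamp2, -0.29 to 0.10 for Vamp5, -0.20 to 0.10 for Bet1l, -0.0386 to 0.0288 for Gosr1, -0.0967 to 0.0652 for Gosr2, -0.17 to 0.055 for Napg, -0.0698 to 0.213 for Nsf, -0.0034 to 0.10 for Stxbp2, -0.0833 to 0.20 for Vps45 and -0.077 to 0.22 for Vps33a.

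Whether equal replicate numbers pair the libraries is not said in the labels. Deviations of same-numbered libraries correlated at 0.0052, 0.028 and -0.0013 over genes. Those of differently numbered libraries correlated at between -0.061 and 0.044. With 3 libraries in a group, such correlations cannot show whether libraries were paired. With the replicate block, the median of the 35 was 0.09.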
